A study of Mus musculus with 64 samples.

Results

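The 9 genes Foxa1, Foxa2, Foxa3, Cebpa, Cebpb, Onecut1, Prox1, Gata4 and Creb3l3, which encode transcription factors of the hepatocyte, were described across 64 mouse RNA-seq libraries. Members were taken by symbol from the tables of read counts, and 9 of 9 were found among the 23338 genes of each table. All samples carried the C57BL/6 strain label, with no transgene or treatment named in the labels. There were 12 individual eight-cell embryos (6 male and 6 female), 4 lines of ES cells grown in 2i medium (2 male and 2 female), 24 livers of late-gestation fetuses (12 male and 12 female) and 24 livers of adults (12 male and 12 female). Each ES line was derived from the inner cell mass of a single embryo, and 2i medium holds inhibitors of MAP kinase kinase and of glycogen synthase kinase 3, which keep the cells in a naive pluripotent state. Each embryo library pooled the cells of 1 embryo and was amplified by a single-cell protocol, whereas the liver and ES libraries were made from total RNA with a stranded kit, and in any comparison of embryos with other samples the protocol and the stage cannot be told apart. The livers are whole tissue, in which the fetal organ is also a site of blood formation.

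Hepatocyte identity rests on a small set of transcription factors that bind the control regions of liver genes together and that also bind the genes of one another. The Foxa proteins are forkhead factors that can open closed chromatin and are needed for the liver to be specified from foregut endoderm. Cebpa and Cebpb are basic leucine zipper proteins of the C/EBP family, the first tied to quiescence, glucose production and ammonia handling and the second to the acute phase and regeneration. Onecut1 (HNF6) and Prox1 are homeodomain proteins that act in hepatoblast migration and in the choice between hepatocyte and bile duct fates. Gata4 is a zinc finger protein of early endoderm and of liver sinusoidal endothelium. Creb3l3 (CREBH) is a membrane-bound factor of the endoplasmic reticulum that is released by cleavage and acts on genes of lipid, iron and acute-phase metabolism.

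Counted reads on genes numbered 1567583 to 4757610 in adult livers, 5145371 to 8499603 in fetal livers, 9857929 to 10386931 in ES lines and 4659656 to 7725432 in embryos. The Xist and Ddx3y counts fitted the sex label in 64 of 64 libraries. Reads that fell outside genes made up 39.9% to 49.0% of the counted reads in male fetal livers and 34.1% to 38.1% in female fetal livers, with no overlap, so sex and this share cannot be told apart in the fetal liver. In adult livers the share was 28.0% to 35.2% in males and 25.7% to 36.6% in females. Fetal female liver 14 held 8 of 8 listed genes of intestinal epithelium at levels above the other 23 fetal livers, a list chosen after its values were seen. Its Alpi level was 149.5 CPM (read counts per 1000000 reads on genes, scaled with TMM factors over all libraries) against at most 0.124 CPM in the others, and its Fabp2 level was 470.5 CPM against at most 4.93 CPM. Fetal male liver 11 had the largest share outside genes of all libraries, 49.0%. Both livers were kept, and values without them stand beside some of the results in which either held the extreme value. Adult against fetal liver was not fitted without liver 11.

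On GRCm38, Foxa1 lies at chr12:57540628-57546916 on the minus strand, Foxa2 at chr2:148042877-148046969 on the minus strand and Foxa3 at chr7:19013284-19023538 on the minus strand. Cebpa, a single-exon gene, lies on the same chromosome as Foxa3, at chr7:35119293-35121928 on the plus strand. Cebpb, also without introns, lies at chr2:167688915-167690418 on the plus strand. Onecut1 lies at chr9:74861921-74891781 on the plus strand, Prox1 at chr1:190118035-190170714, Gata4 at chr14:63198922-63271692 and Creb3l3 at chr10:81084324-81098874, the last 3 on the minus strand. The exons of Onecut1 share 2171 bases with a long non-coding RNA gene of the same strand, Gm20649, which is absent from the count tables. Those of Cebpa and Prox1 share 51 and 133 bases with antisense RNAs, Gm45091 and Prox1os, also absent from the tables. Whether reads were counted by strand is not given in the sources used here.

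RefSeq promoter windows (GRCm38.p6) were found for 8 of the 9 genes, in 12 windows, and the 250 bases before each start were searched on both strands. The windows of Cebpb and Creb3l3, the pair with the largest differences between adult and fetal liver, lay far apart in their content of CG pairs, printed below in capitals, with 41 in Cebpb and, in its 2 windows, 4 and 8 in Creb3l3, against a median of 6 over 32851 windows. Cebpb is given from chr2:167688665-167688914 (plus strand) and Creb3l3 from chr10:81098873-81099122 (minus strand), the more upstream of its windows.
Cebpb: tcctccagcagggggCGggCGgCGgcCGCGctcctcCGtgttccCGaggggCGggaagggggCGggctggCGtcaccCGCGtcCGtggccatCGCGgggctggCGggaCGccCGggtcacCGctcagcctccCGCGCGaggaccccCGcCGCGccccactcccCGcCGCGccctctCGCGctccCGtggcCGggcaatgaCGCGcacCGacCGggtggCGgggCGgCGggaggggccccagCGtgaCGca
Creb3l3: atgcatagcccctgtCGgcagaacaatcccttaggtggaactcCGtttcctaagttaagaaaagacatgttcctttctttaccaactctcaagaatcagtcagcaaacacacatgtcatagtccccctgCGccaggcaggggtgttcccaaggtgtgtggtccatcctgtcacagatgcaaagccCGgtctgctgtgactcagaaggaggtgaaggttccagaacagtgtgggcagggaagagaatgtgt
A share of 98.9% of all windows held fewer CG pairs than that of Cebpb, and 37.8% and 57.0% held fewer than those of Creb3l3.

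The letters TATAAA were found in windows of 4 of the genes and in 12.4% of all windows. They are shown in capitals in Foxa3, whose level did not differ detectably between fetal and adult liver, from chr7:19023540-19023789 (minus strand), and in Cebpa, one of the genes with higher adult levels, from chr7:35119043-35119292 (plus strand).
Foxa3: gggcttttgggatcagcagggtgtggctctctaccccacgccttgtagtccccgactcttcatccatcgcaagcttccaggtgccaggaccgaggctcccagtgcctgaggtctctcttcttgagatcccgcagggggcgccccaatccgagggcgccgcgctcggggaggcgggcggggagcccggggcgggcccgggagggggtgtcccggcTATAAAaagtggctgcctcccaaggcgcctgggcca
Cebpa: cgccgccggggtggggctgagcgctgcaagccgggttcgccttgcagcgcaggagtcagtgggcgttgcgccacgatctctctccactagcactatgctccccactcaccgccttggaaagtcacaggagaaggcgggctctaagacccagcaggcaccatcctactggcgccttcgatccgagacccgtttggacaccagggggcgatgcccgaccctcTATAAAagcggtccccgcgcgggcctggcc
The first base of this match lay 36 bases before the start in Foxa3 and 30 in Cebpa. In a window of Prox1 the match was 34 bases before the start and on the other strand, and in a window of Foxa2 it was 208 bases before it, also on the other strand. The forkhead letters TGTTTAC were present in the window of Foxa1 and in 3.17% of all windows. TTGCNNCA, a relaxed form of the C/EBP site, was present in that of Cebpa and in 9.59% of all windows. The letters CCAAT were in windows of 4 of the genes and in 33.8% of all windows. No member window held TTGCGCAA, AGATAAG or TGACGTCA, which were in 0.164%, 2.74% and 1.55% of all windows.

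Over the stages, Foxa2, Foxa3, Onecut1 and Prox1 were at or close to 0 in embryos and ES lines, at most 1.85 CPM, and were at 3.34 CPM or more in every liver. Foxa1, Cebpa and, in part of the embryos, Creb3l3 were present in the embryo, at 0.361 CPM or less in every ES line and present again in liver. Gata4 was also lower in ES lines than in embryos or livers but had reads in every line, at 1.15 to 2.98 CPM. Cebpb had mean levels of 0.406 CPM in embryos, 2.00 in ES lines, 12.02 in fetal and 88.2 in adult livers, of which the first step was not called.

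**Figure D1:**
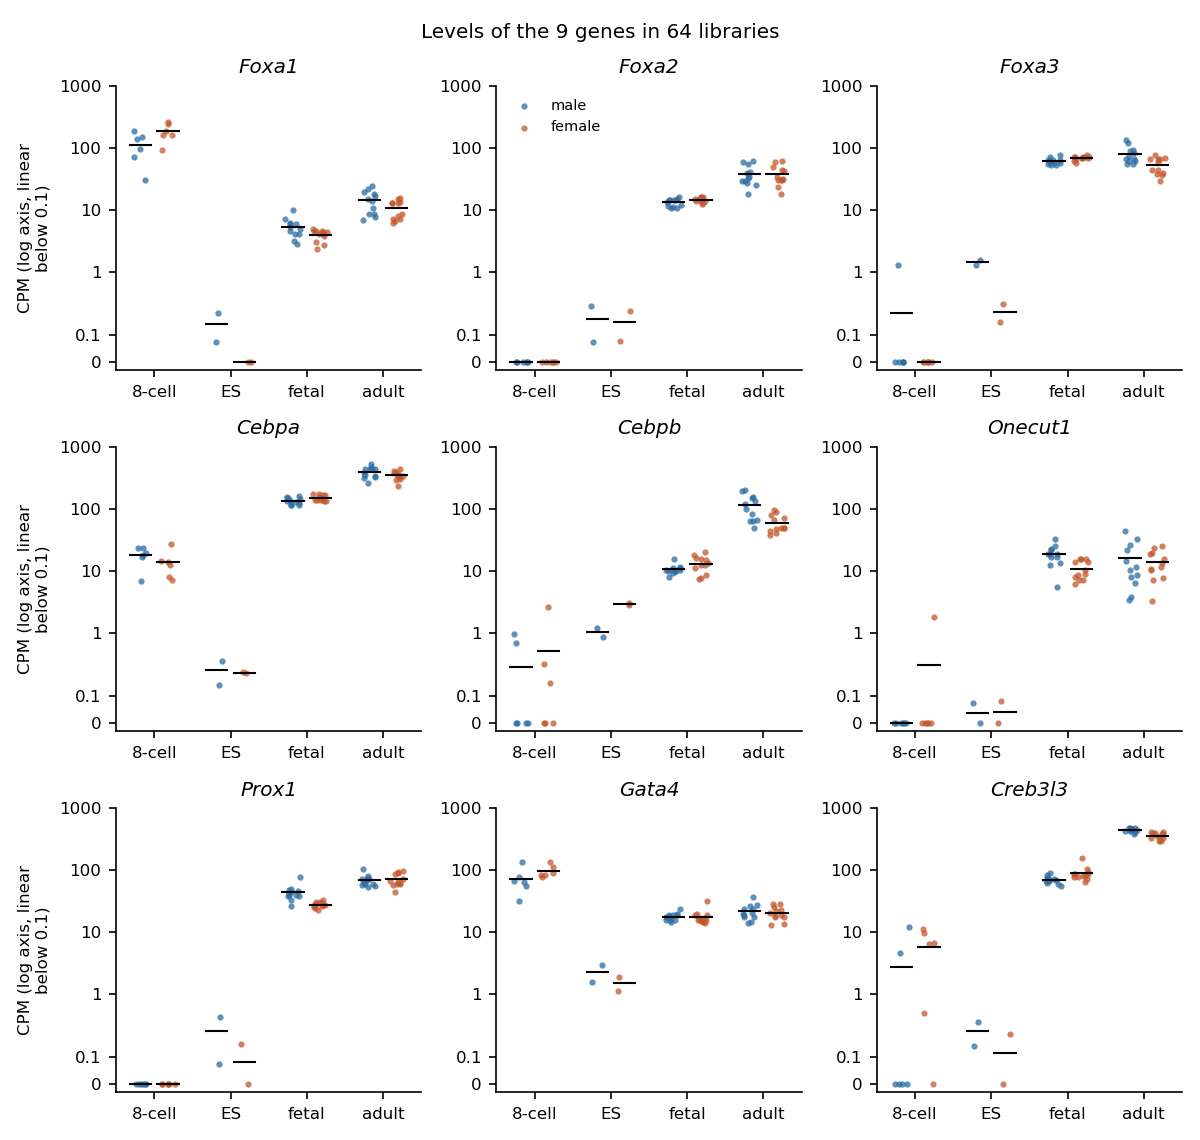
Level of each of the 9 genes in CPM (vertical axis, logarithmic above 0.1 CPM and linear below) in every library of the 4 stages, with 1 point per library, males in blue, females in orange and black bars for the group means. Foxa1 and Gata4 are high in all 12 embryos (at least 30.2 and 31.7 CPM), low in the 4 ES lines (at most 0.218 and 2.98 CPM) and present again in all 48 livers, while Foxa2 and Prox1 have no read in any embryo.

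Between genes, levels were compared only as CPM per kilobase of merged exons and only among livers or ES lines. In fetal liver the order was Cebpa (55.0 ± 6.86 CPM per kb, SD, n = 24), Creb3l3 (34.8 ± 8.91), Foxa3 (32.2 ± 3.49), Cebpb (7.99 ± 2.21), Foxa2 (6.48 ± 0.763), Gata4 (4.89 ± 1.01), Prox1 (4.28 ± 1.45), Onecut1 (3.77 ± 1.70) and Foxa1 (1.48 ± 0.519). Creb3l3 and Foxa3, Cebpb and Foxa2, Gata4 and Prox1, and Prox1 and Onecut1 were neighbours in this order whose means differed by less than the larger of their SDs. Cebpa ranked first in 23 of 24 fetal livers, and the exception was liver 14, in which Creb3l3 did. In adult liver Creb3l3 came first (174.5 ± 24.3 CPM per kb), in 17 of 24 livers, and Cebpa second (141.5 ± 27.0), ranking first in the other 7. Cebpb followed (58.6 ± 31.8), then Foxa3 (32.9 ± 12.4), Foxa2 (17.5 ± 6.19), Prox1 (8.30 ± 1.79), Gata4 (5.80 ± 1.56), Foxa1 (3.94 ± 1.63) and Onecut1 (3.81 ± 2.56). Here the means of Cebpb and Foxa3, and of Foxa1 and Onecut1, differed by less than the larger SD. In ES lines the highest level per kilobase was that of Cebpb, 1.33 ± 0.739 (n = 4), and the lowest that of Onecut1, 0.00953 ± 0.0110.

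**Figure D2:**
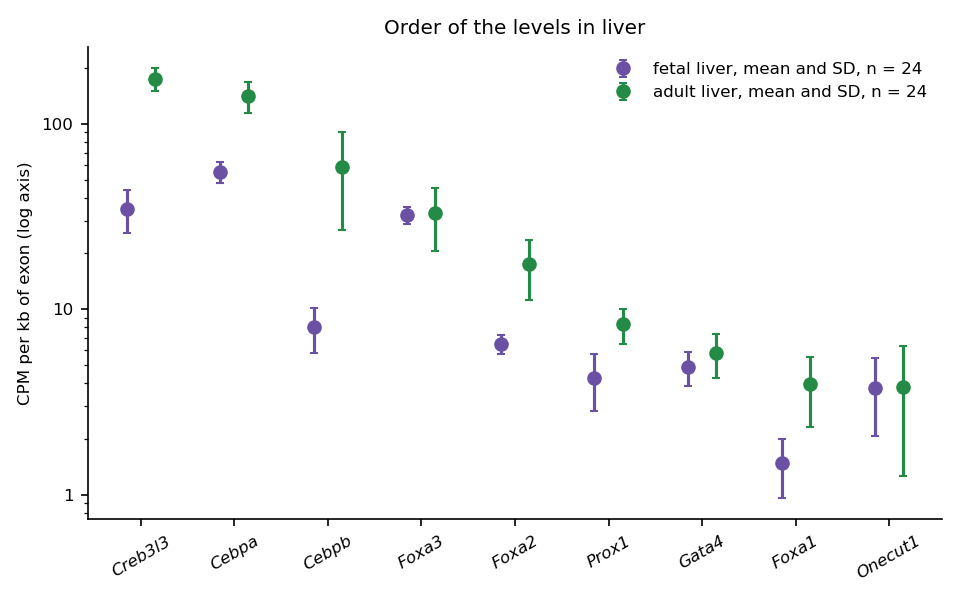
Mean level of each gene in CPM per kilobase of exon (vertical logarithmic axis) in 24 fetal livers (purple) and 24 adult livers (green), with bars for the SD and genes ordered by the adult mean. Creb3l3 leads in the adult at 174.5 and Cebpa in the fetus at 55.0, while the 2 means of Foxa3 (32.2 and 32.9) and of Onecut1 (3.77 and 3.81) lie next to each other.

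Adult and fetal livers were compared in 1 model of all 48 livers. Of the 9 genes, 6 were higher in adult liver at an adjusted p below 0.1 and an absolute log2 difference above 0.5 (edgeR quasi-likelihood test, Benjamini-Hochberg adjustment over all genes tested), and 0 were lower. By the same rule 67.1% of the 13026 genes tested were called, 31.7% as higher and 35.4% as lower, so a call in this comparison is common. The median log2 difference of the members was 1.47, against -0.05 for all genes tested. The genes called were Cebpb, Creb3l3, Foxa2, Foxa1, Cebpa and Prox1. Foxa3, Onecut1 and Gata4 were not called.

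Among the Foxa genes, Foxa2, which acts in the hepatic response to fasting and in bile acid handling, measured 10.8 CPM in the lowest, 14.6 in the median and 16.4 in the highest fetal liver, and 18.2, 33.6 and 62.6 CPM in adult livers. Every adult liver was above every fetal liver, a separation seen in 4 of the 9 genes and in 31.6% of the 17169 genes with at least 10 reads, and the log2 difference was 1.54 ± 0.10 (SE, adjusted p = 5.3e-20). Foxa1 was the lowest of the 3, with 2.41, 4.53 and 10.1 CPM (lowest, median and highest) in fetal and 6.33, 12.9 and 24.9 CPM in adult livers. Its groups overlapped, with 14 of 24 adult livers above the highest fetal one, and the difference was 1.5 ± 0.14 (adjusted p = 1.3e-14). It rested on 19 to 80 reads per fetal and 11 to 82 reads per adult library. Foxa3, the Foxa gene with the highest level per length in liver, measured 53.1, 65.8 and 76.4 CPM in fetal and 29.6, 66.4 and 136.1 CPM in adult livers. The adult range enclosed the fetal one, with 6 adult livers above and 6 below every fetal liver, and the difference was 0.11 ± 0.09 (95% interval -0.06 to 0.29, adjusted p = 0.23). In males alone it was 0.45 and in females alone -0.27.

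The share of Foxa3 in the summed level per kilobase of the 3 Foxa genes was 80.0% ± 2.59 (SD, n = 24) in fetal liver and 59.6% ± 12.8 in adult liver. That of Foxa2 was 16.2% ± 1.77 and 33.1% ± 11.4, and that of Foxa1 3.76% ± 1.51 and 7.30% ± 2.61. The spread of the Foxa3 share was thus wider in the adult, from 31.3% to 85.1%, than in the fetus, from 72.8% to 86.4%.

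Of the C/EBP genes, Cebpb had the largest difference of the 9 genes. It measured 7.59 CPM in the lowest, 11.2 in the median and 20.1 in the highest fetal liver, and 39.0, 69.2 and 202.0 CPM in adult livers. The groups did not overlap, and the log2 difference was 2.92 ± 0.15 (7.55-fold, adjusted p = 2.6e-23). Cebpa measured 115.6, 142.5 and 177.3 CPM in fetal and 237.1, 357.8 and 541.6 CPM in adult livers, again without overlap, a difference of 1.47 ± 0.05 (2.78-fold, adjusted p = 7.3e-32). Cebpb made up 12.6% ± 2.43 of the summed level per kilobase of the pair in fetal liver and 28.4% ± 11.7 in adult liver, where the highest library reached 52.0%.

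Creb3l3 measured 55.1, 76.2 and 159.4 CPM (lowest, median and highest) in fetal and 297.4, 404.4 and 484.7 CPM in adult livers. No adult value was within the fetal range, and the log2 difference was 2.44 ± 0.06 (5.44-fold, adjusted p = 8.0e-39). The highest fetal value was that of liver 14, and without it the difference was 2.49.

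Prox1 measured 23.03, 31.8 and 79.0 CPM in fetal and 44.3, 65.8 and 103.1 CPM in adult livers. Only 6 of 24 adult livers were above the highest fetal value, which was that of liver 11, but 24 of 24 were above the fetal median, and the log2 difference was 1.09 ± 0.09 (adjusted p = 2.4e-16). Onecut1 measured 5.65, 14.8 and 33.2 CPM in fetal and 3.34, 11.6 and 44.6 CPM in adult livers, and the ranges lay on top of each other. Its difference was 0.16 ± 0.21 (95% interval -0.26 to 0.57, adjusted p = 0.48), so a difference of the size called for other genes was not shown. Gata4 measured 14.3, 17.2 and 31.6 CPM in fetal and 13.3, 19.9 and 37.0 CPM in adult livers. Its difference of 0.36 ± 0.09 had an adjusted p of 0.00032 but stayed under the 0.5 threshold, and without liver 14, the highest fetal value, it was 0.41.

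Adding the share of reads on genes as a covariate raised the difference of Onecut1 to 1.06 (adjusted p = 0.013) and that of Gata4 to 0.64 (adjusted p = 0.0013), both then past the thresholds. That share was 50.4% to 59.3% in male fetal, 61.2% to 65.0% in female fetal and 62.8% to 73.4% in adult livers. Stage and share thus overlap only in part, and no male fetal liver reached the share of an adult one. Scaling by library totals alone shifted the median of all genes by -0.57, and the share of calls that were higher in the adult went from 47.3% to 25.4%. The 6 members stayed higher under it, while Foxa3, Onecut1 and Gata4 measured -0.45, -0.41 and -0.21.

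**Figure D3:**
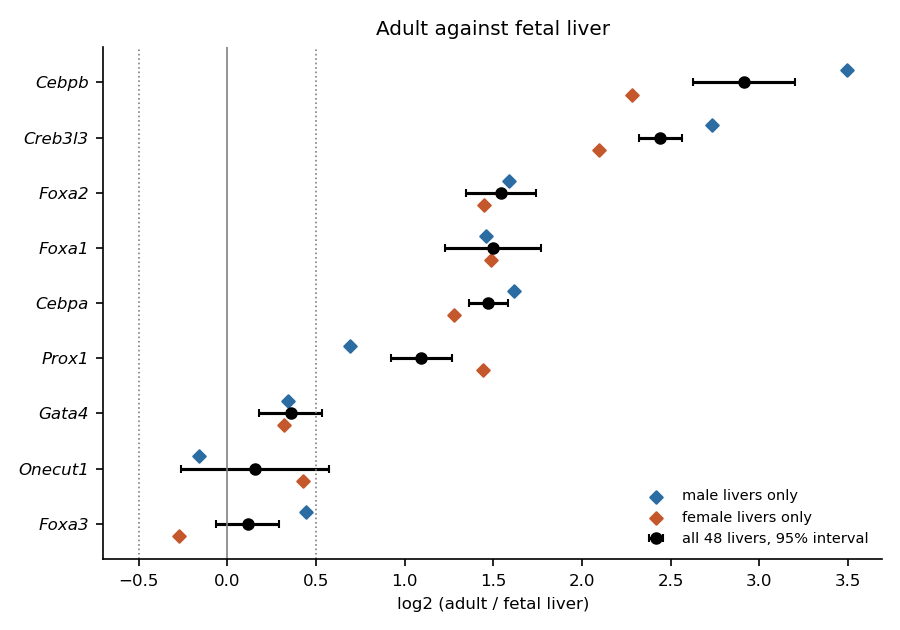
Difference between adult and fetal liver on the log2 scale (horizontal axis) for each gene, from all 48 livers with its 95% interval (black) and from male (blue) and female (orange) livers alone, with dotted lines at the threshold of 0.5 in either direction. Cebpb (2.92) and Creb3l3 (2.44) lead, 6 genes lie beyond the threshold in both sexes, and Foxa3 lies on opposite sides of 0 in males (0.45) and females (-0.27).

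The cell makeup of the 2 livers differed along with these levels. All 6 erythroid marker genes tested were lower in adult liver, with a median log2 difference of -10.79, and the summed level of the 8 listed genes found was 4006 to 5962 CPM in fetal and 18.4 to 249.2 CPM in adult livers. All 8 neutrophil and myeloid markers were lower, with a median of -10.31 and sums of 1687 to 3560 CPM in fetal against 0 to 9.32 CPM in adult livers. Of 8 hepatocyte markers, 6 were higher in adult liver and 0 lower, with a median of 0.97 (Alb 0.99 ± 0.04, Ttr 1.38 ± 0.04), and all 8 had reads in every liver. The 7 sinusoidal endothelial markers had a median of 0.00, with 2 higher and 1 lower. The part of these shifts in the members' differences was not tested. In whole tissue, fewer cells of a type and less RNA per cell cannot be told apart.

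Of 14 other transcription factors of the liver, 11 were higher and 2 lower in adult liver, with a median of 1.67. The largest differences were those of Nr0b2, a repressor in bile acid feedback (6.51 ± 0.17), Nr1i3, the xenobiotic receptor CAR (4.67 ± 0.12), and Tbx3, a T-box factor of the hepatoblast (2.98 ± 0.16). Hnf4a, a nuclear receptor central to hepatocyte genes, measured 242.0 to 320.8 CPM in fetal and 681.5 to 1344 CPM in adult livers. The 2 lower genes were Sall4, which had no read in any adult library and 4.25 to 12.2 CPM in fetal livers, and Ppargc1a, a coactivator of glucose production (-0.52 ± 0.11). Of 16 relatives of the members, 11 passed the filter on low counts, and 2 of these were higher and 3 lower, with a median of -0.14. The higher genes were Onecut2 (1.61 ± 0.14) and Creb3 (1.14 ± 0.04). The lower ones were Gata1, the erythroid member of the GATA family, at 63.8 to 97.7 CPM in fetal livers and at most 0.40 CPM in adult livers, Gata2 (-1.57 ± 0.24) and Cebpe, a granulocyte gene (-0.87 ± 0.11).

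Textbook targets were read beside their regulators. Of 4 Foxa targets, 3 were higher in adult liver and 1 lower. Pck1 and Tat, enzymes of glucose production and tyrosine breakdown, had medians of 2.25 and 2.97 CPM in fetal and 3285 and 2014 CPM in adult livers, and Igfbp1 was lower (-2.23 ± 0.29). Of 6 C/EBP targets, 5 were higher and 0 lower. Tdo2, which degrades tryptophan, went from a median of 0.145 to 1752 CPM, G6pc, the last step of glucose release, from 4.24 to 871.4 CPM, and Cps1, the first enzyme of the urea cycle, from 1344 to 9006 CPM, while Gys2 had a difference of 0.43 ± 0.05 and was not called. Of 6 Creb3l3 targets, 4 were tested. Hamp, the iron hormone hepcidin, was higher (5.60 ± 0.21) and Apcs lower (-0.97 ± 0.11). Apoa4 was also called higher (4.24 ± 0.78, and 7.64 ± 0.13 without liver 14), with a fetal median of 0.928 CPM, an adult median of 208.2 CPM and a single fetal value of 1762 CPM in liver 14. Both listed targets of Onecut1 or Prox1 were higher, Foxa2 as above and Cyp7a1, the rate-limiting enzyme of bile acid synthesis, by 1.26 ± 0.16.

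Fetal livers were compared with the 4 ES lines, which were made with the same kit. All 9 genes were higher in fetal liver and no value overlapped, beside 76.5% of the 14858 genes tested that were called, 41.2% as higher and 35.3% as lower. Groups without overlap were found for 57.7% of the 17760 genes with at least 10 reads. Scaling by library totals alone shifted the median of all genes here by -0.19, and the 9 calls held. Cebpa had 5, 2, 3 and 3 reads in the 4 ES lines and 697 to 1613 reads in fetal livers. On the log2 scale it was 9.08 ± 0.19 (SE, adjusted p = 8.4e-29), and the fetal mean was 595 times the pooled ES level (348 to 1118, exact Poisson 95% interval of the ES reads, which covers counting error only). Creb3l3 had 5, 2, 3 and 0 ES reads and a ratio of 425.5 (231.4 to 887.4). The intervals of Cebpa, Creb3l3, Onecut1 and Prox1 overlapped, so their order was not resolved. Those of Foxa1 and Foxa2 also overlapped with the intervals of Onecut1 and Prox1. With so few ES reads the fitted differences moved with single lines, for Creb3l3 from 8.67 to 10.23 without ES line 3, for Prox1 from 7.75 to 9.05 without line 4 and 8.54 without line 1, and for Onecut1 from 8.06 to 8.93 without line 1 and 8.97 without line 4.

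The liver factors with the fewest ES reads were Onecut1, with 1, 0, 0 and 1 reads and a ratio of 398 (110.1 to 3283), and Foxa1, with 1, 3, 0 and 0 reads and a ratio of 63.1 (24.7 to 231.7). Prox1 had 6, 1, 0 and 2 reads and a ratio of 212.5 (112 to 464.8). Foxa2 had 4, 1, 1 and 3 reads and a ratio of 83.7 (44.1 to 183.1). Only 3 genes had more than 20 reads over the 4 lines together. Foxa3 had 18 and 22 reads in the male lines and 4 and 2 in the female lines. Gata4 had 22, 41, 15 and 24 reads, a level of 1.15 to 2.98 CPM, and its log2 difference was 3.20 ± 0.20 (adjusted p = 1.5e-15). Cebpb had 12, 17, 40 and 36 reads, a level of 0.867 to 3.08 CPM, and the smallest difference, 2.70 ± 0.23 (adjusted p = 1.4e-12).

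ES lines and eight-cell embryos differ in library protocol, and 6 of the 9 genes had enough reads to be tested. Of these, 4 were lower and 1 higher in ES lines, beside 63.2% of 13511 genes called, 25.9% as lower and 37.4% as higher. Scaling by DESeq2 size factors or by library totals shifted the median of all genes by 0.32 and 0.36. The directions of the 6 genes did not change, and the call of Creb3l3 was lost. Foxa1 measured 30.2 CPM in the lowest, 157.8 in the median and 261.0 in the highest embryo, and had the largest difference of the members, -11.64 ± 0.79 on the log2 scale (adjusted p = 1.7e-08). Its mean in embryos was 1994 times the pooled ES level, with a counting interval from 778.9 to 7320. Gata4 measured 31.7, 80.7 and 136.7 CPM in embryos and differed by -5.61 ± 0.43 (adjusted p = 3.4e-08). Cebpa measured 6.95, 15.97 and 27.3 CPM and differed by -6.08 ± 0.68 (adjusted p = 2.0e-06). All 12 embryos were above all 4 ES lines for these 3 genes, while 46.6% of the 15834 genes with at least 10 reads did not overlap between these groups.

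Creb3l3 was uneven among embryos, with reads in 7 of 12 and at most 12.3 CPM, and its difference of -4.56 ± 2.19 (adjusted p = 0.086) was lost in 7 of the alternatives, including the removal of any 1 ES line. Foxa3, with 9 reads in 1 male embryo and none in the other 11, was called higher in ES lines (3.26 ± 1.23, adjusted p = 0.042), but not by DESeq2 (adjusted p = 0.45) nor without ES line 3 (adjusted p = 0.10). Cebpb had reads in 5 embryos, at most 2.69 CPM, and was not called (2.04 ± 1.36, adjusted p = 0.21). Onecut1 had 11 reads in 1 embryo, and Foxa2 and Prox1 had 0 reads in all 12. In an embryo library 3 reads were worth 0.388 to 0.644 CPM before scaling with TMM factors. Levels below that rested on very few reads, and a gene without reads could still lie there.

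In fetal liver 2 of the 9 genes were called between the sexes, both higher in males, beside 4.64% of 12930 genes called, 3.81% as higher in males. Prox1 measured 26.7, 41.4 and 79.0 CPM (lowest, median and highest of 12) in males and 23.03, 27.9 and 32.6 CPM in females. In 11 of 12 males it was above every female, and the log2 difference of male over female was 0.69 ± 0.11 (adjusted p = 5.1e-05). Onecut1 measured 5.65, 18.7 and 33.2 CPM in males and 6.22, 9.63 and 15.9 CPM in females, with 9 of 12 males above every female, a difference of 0.82 ± 0.20 (adjusted p = 0.0039). Foxa2 (-0.10), Cebpb (-0.27) and Gata4 (0.05) had adjusted p-values of 0.23, 0.14 and 0.76. Of the other members, Foxa1 (0.48 ± 0.17), Creb3l3 (-0.32 ± 0.11), Foxa3 (-0.12 ± 0.05) and Cebpa (-0.13 ± 0.06) had adjusted p-values of 0.029, 0.033, 0.087 and 0.087 and stayed under the fold threshold. Without liver 11, which had the highest Foxa1 level, Foxa1 differed by 0.36 (adjusted p = 0.075), and without liver 14, which had the highest Creb3l3 level, Creb3l3 differed by -0.20 (adjusted p = 0.026). Without liver 11, whose Prox1 and Onecut1 levels were the highest, the differences were 0.58 for Prox1 and 0.71 for Onecut1 and both calls held.

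Both calls were lost with the share of reads on genes as a covariate, where Onecut1 differed by 0.06 (adjusted p = 1.0) and Prox1 by -0.11 (adjusted p = 0.99) and where 0.0541% of all genes were called. The shares of the sexes do not overlap, so no comparison at an equal share could be made. Within the 12 fetal males, the Prox1 level rose with the percentage of reads outside genes, with a Pearson r of 0.88 (permutation p = 0.00038, adjusted 0.014 over 36 relations) and a Spearman rho of 0.80 (permutation p = 0.0031, adjusted 0.11). Without the 2 libraries farthest from the median share r was 0.71. Within fetal females r was 0.25, in adult males 0.65 and in adult females 0.64 (adjusted permutation p = 0.74, 0.19 and 0.19), and for Onecut1 in fetal males it was 0.47 (adjusted permutation p = 0.39). No other of the 36 relations had an adjusted p of r below 0.1. Of 11 relatives tested, 2 were also called higher in fetal males, Onecut2 (1.15 ± 0.19) and Creb3l2 (0.63 ± 0.14), with 0 lower, and without liver 11 Creb3l2 was at 0.49 and no longer called. Pck1, 1 of 4 Foxa targets, was lower (-1.65 ± 0.59), but without liver 14 it was not called (-0.90 ± 0.45, adjusted p = 0.14). Among bile duct markers, Sox9 was higher in fetal males (1.11 ± 0.31, and 1.19 ± 0.32 without liver 14). Epcam, Krt19 and Krt7 were called lower with liver 14, which held 169, 88.5 and 25 CPM of them against at most 10.7, 10.4 and 8.36 CPM in the other fetal livers. Without it none of the 3 was called by edgeR, at -0.04, -0.19 and -0.29 (unadjusted p = 0.89, 0.27 and 0.082). The list had a summed level of 33.0 to 81.9 CPM in males and 31.9 to 139.1 CPM in the other 11 females, against 351.1 CPM in liver 14, and the part of these markers in the members' differences was not tested.

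**Figure D4:**
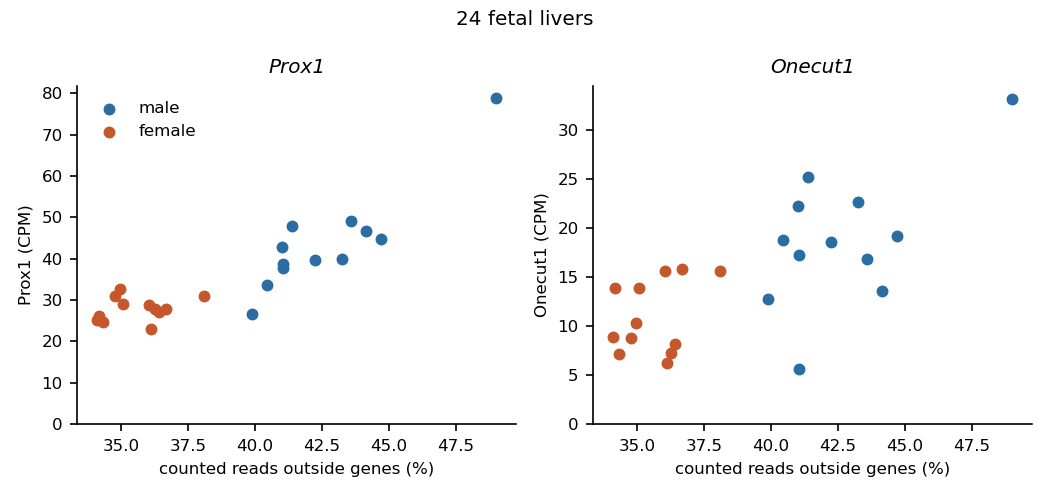
Levels of Prox1 and Onecut1 in CPM (vertical axes, from 0) against the percentage of counted reads outside genes (horizontal axis) in 24 fetal livers, males in blue and females in orange. Male livers lie to the right, from 39.9% to 49.0%, and females to the left, from 34.1% to 38.1%, and the male liver at 49.0% has the highest value in both panels (79.0 and 33.2 CPM).

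In adult liver 2 of the 9 genes were called, both higher in males, beside 9.49% of 10372 genes called, 3.01% as higher in males. Cebpb measured 50.5, 111.1 and 202.0 CPM (lowest, median and highest of 12) in males and 39.0, 50.2 and 96.2 CPM in females. The groups overlapped, with 7 males above every female and 7 females below every male, and the difference was 0.91 ± 0.24 (1.88-fold, adjusted p = 0.0067). Foxa3 measured 55.3, 71.7 and 136.1 CPM in males and 29.6, 52.4 and 76.4 CPM in females, with 5 males above every female and a difference of 0.57 ± 0.18 (1.48-fold, adjusted p = 0.023). Both held with the share covariate. Creb3l3 had the narrowest groups, 375.0, 446.4 and 484.7 CPM in males against 297.4, 364.6 and 404.7 CPM in females, with 11 of 12 males above every female. Its difference of 0.29 ± 0.06 (adjusted p = 0.00055) was under the fold threshold. Foxa1 (0.42, 95% interval -0.01 to 0.84) and Cebpa (0.17, -0.0047 to 0.34) had adjusted p-values of 0.16 and 0.17. The 4 genes Foxa2 (-0.01), Prox1 (-0.09), Gata4 (0.04) and Onecut1 (0.20) had adjusted p-values of at least 0.67, with 95% intervals of -0.40 to 0.38, -0.34 to 0.17, -0.25 to 0.33 and -0.56 to 0.96. The summed CPM of the 9 genes was 1091 to 1274 in adult males and 911.2 to 1039 in adult females, without overlap, and 326.1 to 448.4 and 332.2 to 456.5 in fetal males and females. Creb3l3 and Cebpa were the largest parts of this sum in every adult liver, and gene length was not taken into account. The summed level of the 8 hepatocyte markers separated the adult sexes in the other direction, at 58700 to 68970 CPM in males and 74040 to 88280 CPM in females, and Ahsg was the gene of that list called (-0.58 ± 0.06). Its part in the members' differences was not tested.

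Of the Creb3l3 targets tested in adult liver, 3 were lower and 0 higher in males, namely Apcs (-1.34 ± 0.14), Apoa4 (-1.18 ± 0.12) and Hamp (-1.01 ± 0.19). Of the 6 C/EBP targets Tdo2 alone was called (0.55 ± 0.07). Of 8 relatives tested, Cebpd (0.71 ± 0.28) and Cebpe (0.68 ± 0.17) were higher in males, and of 13 other liver factors Nr1i3 (-0.68 ± 0.14) and Ppargc1a (-0.59 ± 0.19) were lower. Cyp7a1 was also lower (-1.30 ± 0.25). Of the 7 macrophage markers tested, 4 were lower in adult males, with a summed level of 385.3 to 666.6 CPM in males and 513.9 to 1126 CPM in females. The erythroid list summed to 191.6 to 249.2 CPM in males and 18.4 to 56.1 CPM in females, with Alas2 the gene called (2.79 ± 0.11), and their part in the members' differences was not tested.

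The test of the difference itself, the sex difference in adult liver minus that in fetal liver, called 4 of the 9 genes, 3 higher and 1 lower, beside 13.7% of 13026 genes, 5.19% as higher and 8.53% as lower. The value was higher for Cebpb (1.23 ± 0.29, adjusted p = 0.0014), Foxa3 (0.73 ± 0.18, adjusted p = 0.0021) and Creb3l3 (0.64 ± 0.12, adjusted p = 6.0e-05). In each of these the male over female difference was positive in the adult (0.91, 0.57 and 0.29) and negative in the fetus (-0.27, -0.12 and -0.32). Of these differences, only those of Cebpb and Foxa3 in the adult were called alone. The fetal values include female liver 14, with the highest Creb3l3 and Cebpb levels. It held 159.4 and 20.07 CPM, against at most 104.1 and 17.97 CPM in the other 11 females. For Prox1 the value of the test was lower (-0.73 ± 0.17, adjusted p = 0.0014), from a male excess in the fetus and none called in the adult. With the share covariate, fitted with 1 slope per stage, 0 of the 9 were called by edgeR, against 5.72% of all genes, and the values were 1.09, 0.43, 0.42 and 0.01 in the order above (adjusted p = 0.26, 0.44, 0.25 and 1.0).

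**Figure D5:**
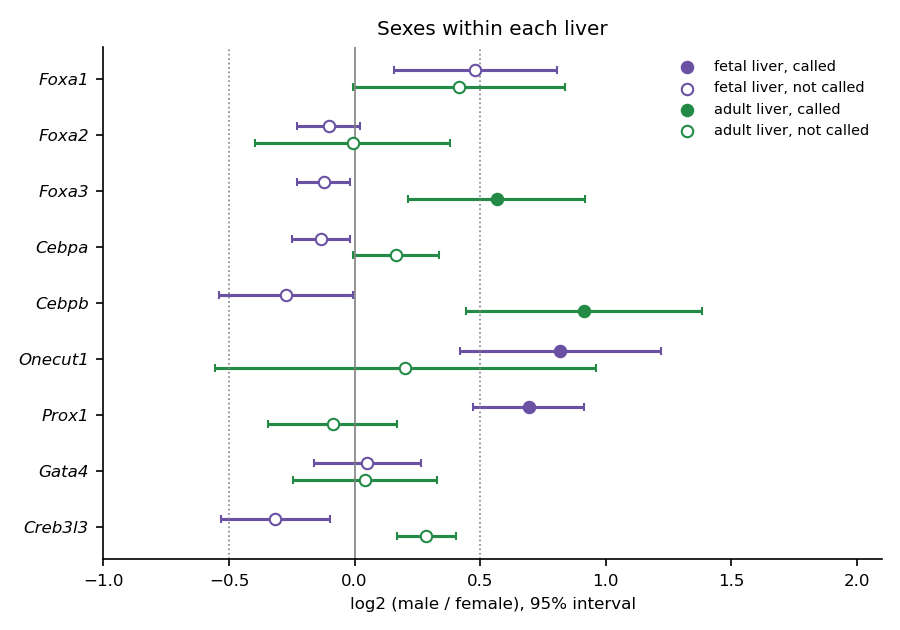
Difference of male over female on the log2 scale (horizontal axis) for each gene in fetal liver (purple) and adult liver (green), with 95% intervals, filled points for called genes and dotted lines at 0.5 in either direction. Onecut1 (0.82) and Prox1 (0.69) are called in the fetus and Cebpb (0.91) and Foxa3 (0.57) in the adult, and no gene is called in both.

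Between male and female ES lines only 3 genes had enough reads to be tested. Foxa3 was higher (2.60 ± 0.53, adjusted p = 0.054) and Cebpb lower (-1.48 ± 0.34, adjusted p = 0.075) in the male lines, beside 9.5% of 12678 genes called, 3.42% as higher and 6.08% as lower, and Gata4 was not called. With 2 lines a sex, line and sex cannot be told apart, and neither call was made by DESeq2 (adjusted p = 0.16 and 0.22) or without either female line (adjusted p = 0.40 and 0.53 without line 3, 0.56 and 0.54 without line 4). In embryos edgeR called 0 of the 4 genes tested, beside 0.264% of 9087 genes, 0.044% as higher and 0.22% as lower, and DESeq2 also called 0. Foxa1 alone had an unadjusted p below 0.05, with 30.2, 119.2 and 186.8 CPM in males, 94.9, 175.0 and 261.0 CPM in females and a difference of -0.72 ± 0.33 (adjusted p = 1.0).

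The members varied to unequal degrees among livers of 1 sex and stage. In adult males the coefficient of variation was 79.8% for Onecut1, 45.1% for Cebpb and 41.4% for Foxa1, against 6.90% for Creb3l3 and 20.2% for both Cebpa and Prox1. In adult females Onecut1 was again the most variable, at 48.9%, and Creb3l3 the least, at 11.2%. In fetal females the values were between 7.59% for Foxa2 and 33.9% for Onecut1, and in fetal males between 11.4% for Foxa3 and 36.4% for Onecut1. Onecut1 rested on 7 to 123 reads per adult male library, so counting error is part of its spread.

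Pairs of members were correlated within each of the 4 liver groups (log2 CPM, n = 12 each, 144 relations), where both genes share the depth and scaling of their library. For 5 pairs the permutation p of both coefficients was below 0.1 after adjustment. In adult males Foxa3 was lower where Cebpa was higher, with a Pearson r of -0.75 and a Spearman rho of -0.91 (adjusted permutation p = 0.099 and 0.016, r = -0.85 without the 2 farthest livers). Foxa3 was higher where Cebpb was higher (r = 0.79 and rho = 0.77, adjusted permutation p = 0.081 and 0.094, r = 0.62 without the 2 farthest). Onecut1 went with Gata4 (r = 0.83 and rho = 0.78, adjusted permutation p = 0.081 and 0.094, r = 0.68). In adult females the same 3 pairs had r of -0.23, 0.02 and 0.35 (adjusted permutation p = 0.69, 0.98 and 0.51), and the difference between the sexes was not tested. In fetal males Cebpa went with Onecut1 (r = 0.77 and rho = 0.85, adjusted permutation p = 0.081 and 0.035, r = 0.78) and with Creb3l3 (r = 0.79 and rho = 0.86, adjusted permutation p = 0.081 and 0.035, r = 0.73). The same pairs had r of 0.67 and -0.06 in fetal females (adjusted permutation p = 0.17 and 0.95), and here too the difference between the sexes was not tested.

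The gene whose log2 CPM was most alike over all 64 samples was found for each member among 15735 others, as a description that is set mostly by the differences between stages. Prox1 was followed most closely by F5, coagulation factor V (r = 0.996), Foxa2 by Hfe, an iron regulator (0.994), and Foxa3 by Plcb1, a phospholipase (0.989). Cebpa was followed by Arg1, the last enzyme of the urea cycle (0.979), Onecut1 by Pik3ap1 (0.972), Cebpb by Sepx1 (0.966), Foxa1 by Cdc14b (0.956), Gata4 by Timd2 (0.941) and Creb3l3 by Lpgat1 (0.936).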

How the data were processed

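The authors deposited raw counts without normalization, as 1 table for each of the 64 libraries with 23338 genes, made with HTSeq. According to their methods, reads were aligned to mm10 with TopHat2 2.0.4 and Bowtie2 2.1.0, with SAMtools 0.1.18, and duplicates were removed with Picard; the processing notes name the same tools. Removal of duplicates can lower the counts of short, highly expressed genes. The annotation was the one supplied with TopHat, and the positions printed here are from GENCODE vM21 on GRCm38.

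Groups follow the Stage and gender labels. Levels are CPM scaled with TMM factors over all 64 libraries, and per kilobase of merged exons where genes are compared. Tests used edgeR 4.0.16 in R 4.3.3 (TMM, filterByExpr, robust quasi-likelihood F test, two-sided, Benjamini-Hochberg over all genes that passed the filter), with calls at an adjusted p below 0.1 and an absolute log2 above 0.5, and were checked on simulated data. The authors used DESeq2; DESeq2 1.42.0 was an alternative here, beside other scalings, no filter, all 64 libraries in 1 fit, a covariate for the share of reads on genes, a replicate block and samples left out. Summaries used Python 3.11.15, numpy 2.4.6, scipy 1.17.1 and pandas 2.3.3, and permutation tests were two-sided with 100000 resamples. Intervals of log2 values are 1.96 SE on either side.

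The text names all 9 members, up to 3 genes in each direction of the other lists among those called between adult and fetal liver, and the gene most like each member. Hnf4a, Alb, Gys2, list genes called between the sexes and the intestinal genes were named after their values were seen. Results on 1 listed gene are not reported here. The members and lists were chosen with earlier results of these data known. Leaving out fetal livers 14 and 11 was chosen after seeing the data. 3 reads in a library were worth 0.289 to 1.91 CPM before scaling with TMM factors. Reads carry no molecular identifiers, so the Poisson intervals of ES reads and the limits set by read number cover counting error only. The intervals of log2 values also take in the spread between samples. Livers are of separate animals, and p-values measure the spread between these samples. Litter entered no fit, and each embryo and liver was taken as a separate unit. By the paper's methods, its discovery embryos came from fewer litters than there were embryos.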

Additional observations from a re-analysis of the deposited data

Results flagged for a closer look

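In the test of the sex difference in adult liver minus that in fetal liver, 4 of the 9 genes stood out, Foxa3 at 0.73, Cebpb at 1.23, Creb3l3 at 0.64 and Prox1 at -0.73 on the log2 scale, beside 13.7% of all genes called in this test. With the share of reads on genes as a covariate edgeR called 0 of the 9, with Foxa3 at 0.43, Cebpb at 1.09, Creb3l3 at 0.42 and Prox1 at 0.0062. In fetal liver the shares of reads outside genes of the sexes do not overlap, and sex and this share cannot be told apart there. These values include fetal female liver 14, which held the highest fetal Creb3l3 and Cebpb levels.

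Among eight-cell embryos, 12 sets of 6 embryos of 1 sex with reads of a member were examined for a value far from the rest by Dixon's test, and 5 were picked out. The usual rate of about 1 in 20 by chance does not hold for sets with many values at 0, and in 4 of the 5, all but that of Cebpa, at least 3 of the 6 embryos had no read. The Cebpa level of 1 female embryo was 27.3 CPM, against 7.34 to 14.8 CPM in the other 5. The Creb3l3 level of 1 male embryo was 12.3 CPM, against 0 to 4.57 CPM. The other such values were of few reads, Cebpb at 2.69 CPM and Onecut1 at 1.85 CPM in 1 female embryo each and Foxa3 at 1.31 CPM in 1 male embryo, against at most 0.322, 0 and 0 CPM in the others.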

How the results depend on the processing

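Of 487 log2 values of members recomputed under an alternative, 456 kept their side of the thresholds, 20 lost their call, 9 gained one and 2 reversed. A change of direction was counted as reversed only where the main or the alternative value was called. The 456 thus include values that changed direction without being called in either fit. For adult against fetal liver and fetal liver against ES lines, 187 of 189 kept their side of the thresholds. Among these, Foxa3, Onecut1 and Gata4 changed direction between adult and fetal liver under some alternatives, down to -0.45, -0.41 and -0.21, without a call. The reversed values, both with the share of reads on genes as a covariate, were those of Prox1 between the sexes of fetal liver (-0.11) and in the difference of the sex differences (0.0062). With this covariate the members called went to 0 in fetal liver, with 0.0541% of all genes, and to 0 in the difference of the sex differences, with 5.72%. Without a fold threshold, 6 members and 37.2% of all genes were called between the sexes in fetal liver, and 32.8% of all genes in adult liver. At an absolute log2 above 1, 43.4% of all genes were called between adult and fetal liver. Between ES lines and embryos, 3 members were called with the replicate block and 8 in 1 fit of all 64 libraries, and 3 to 4 with 1 ES line left out. Between the sexes of ES lines, DESeq2 called 0 members and 6.28% of all genes, and leaving out 1 line gave 0 to 3 members and 0 to 23.5% of all genes (20% and 23.5% without either male line, 0% without either female line). In embryos DESeq2 called 0.6% and the fit without a filter 0.174% of all genes. The cause of these changes was not tested. The main fits did not pair samples by the numbers in their titles. Of 24 pairs of same-numbered fetal and adult livers, 0 had deviations correlated above 0.1 (from -0.065 to 0.05). This cannot exclude a pairing, since no known pair was measured beside it. The replicate block moved no count of member calls in livers by over 1.5 times. Of 72 mean levels under other scalings, 70 stayed within 1 SD. Depth limits the members in adult livers (1567583 reads in the shallowest), ES lines and embryos, where most had few reads.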
